A study of Oryctolagus cuniculus with 8 samples.

Results

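The effect of adding sucrose to a high-fat diet was examined in the retina of male Chinchilla rabbits, by setting 2 libraries from rabbits on a diet rich in both fat and sucrose (HFSD) against 2 libraries from rabbits on a diet rich in fat alone (HFD). These 4 libraries are all libraries of those 2 diets among the 8 of the series. Both diets were standard chow with 10% lard and 0.5% cholesterol, and the HFSD also contained 35% sucrose. The other 4 libraries came from rabbits on standard chow (ND) and on chow with 40% sucrose (HSD). They served to estimate the spread between libraries, and the difference between HSD and ND is given beside that between HFSD and HFD as the effect of sucrose without fat. The rabbits were wild type, 12 to 16 weeks old when housed, and were fed for 6 months. RNA was taken from dissected retina. The labels do not say that the libraries of a diet came from different animals, so the p-values measure the spread between these libraries.

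Sucrose is split in the gut into glucose and fructose, and lard supplies saturated and monounsaturated fat. The retina burns much glucose. Photoreceptors take it up through the pigment epithelium, and Müller glia, the main glia of the retina, recycle glutamate, pass lactate to neurons and handle retinoids for cones. Rods serve dim light and cones daylight, bipolar cells carry their signals inward, and horizontal and amacrine cells modify them on the way to the ganglion cells. In the rabbit, retinal vessels lie along a band of myelinated nerve fibres beside the optic nerve head, so a piece of retina that holds more of this band brings myelin, astrocyte and vessel RNA with it. The dorsal and ventral retina also differ in gene expression, among others in the enzymes of retinoic acid synthesis and in cone opsins.

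The depths that scale the FPKM values, as recovered from their steps, were 15764577 to 22785832 fragments, and 15779088 to 22785832 in the 4 libraries compared here. They are not exact counts of the fragments held. Fragments summed over genes exceeded the depth in ND replicate 2 (18164819 against 17706804) and HFD replicate 1 (20434393 against 19970643). Retina markers were present in all 8 libraries, among them SAG, the arrestin of rods, at 2826 to 3820 FPKM (fragments per kilobase of gene length, scaled to library depth) and the ganglion cell gene RBPMS at 11.6 to 27.8 FPKM, and 6 of 8 such markers had a row in the table. The HFD libraries were less alike than those of any other diet, with a median absolute difference of 0.226 on log2(FPKM + 1), against 0.131 in HFSD, 0.141 in HSD and 0.192 in ND. Each HFD library stood apart in its own way. HFD replicate 1 had more signal on short genes and less on long genes than the others, and HFD replicate 2 had more signal on immediate early genes. Values without each of these libraries are given where they bear on a result.

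A single gene of 12204 tested (0.00819%) passed the test. This gene was SRGN, and it fell. Limma on log2(FPKM + 1) gave an unadjusted p under 0.05 for 972 genes that were higher in HFSD (7.96%) and 875 that were lower (7.17%), where 610.2 genes in both directions together correspond to 5% of those tested. Both HFSD libraries lay above both HFD libraries for 3039 genes (24.9%) and below them for 3010 (24.7%). With 2 libraries against 2, the smallest p that an exact 2-sided permutation test of a single gene can reach is 0.333. By the fold rule of the study's methods, a change of roughly 1.5-fold in the mean FPKM plus 1, 370 of 19293 protein-coding genes were higher (1.92%) and 538 were lower (2.79%). The differences were small for most genes. The median was -0.0070 over all tested genes, and 266 of them differed by more than 1 on the log2 scale. Except for SRGN, every protein-coding gene below is described by its values. None of those others passed the adjusted test of HFSD against HFD in the main fit of all 8 libraries. Between HSD and ND, SRGN, PXYLP1 and OPN1SW passed the adjusted test in that fit (adjusted p 0.035, 0.043 and 0.037 by limma). The fit of the 4 HFD and HFSD libraries alone called 5 genes higher and 11 lower. The 9 of these with a symbol were PANX3, which was higher, and C1QTNF5, CMBL, ITIH2, LOXL1, PDLIM3, PXYLP1, S100A1 and SRGN, which were lower (C1QTNF5, CMBL and LOXL1 named after their values were seen). Log2 differences are on the log2(FPKM + 1) scale, which understates those of genes near or below 1 FPKM.

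**Figure D1:**
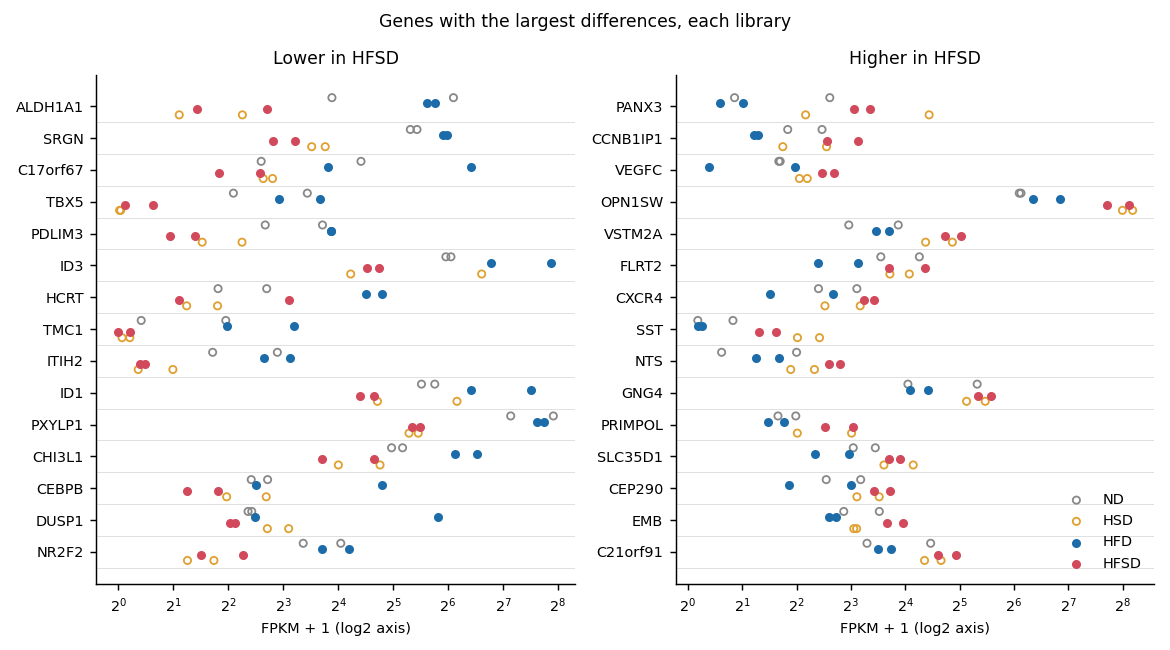
FPKM plus 1 on a log2 axis for the 15 genes with a symbol that were lowest (left) and the 15 that were highest (right) in HFSD relative to HFD, among genes with an unadjusted p under 0.05 and groups that did not overlap. Each circle is 1 library, filled for HFD (blue) and HFSD (red) and open for ND (grey) and HSD (orange). For ALDH1A1, SRGN, TBX5, PXYLP1 and OPN1SW the HSD libraries lie beside the HFSD libraries, away from HFD.

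SRGN encodes serglycin, the core protein of proteoglycans packed into secretory granules of blood-derived and endothelial cells. It measured 59.3 and 62.4 FPKM in the HFD libraries and 6.01 and 8.29 FPKM in the HFSD libraries. The groups lay far apart, and the HFD libraries differed from each other by little. The mean fell from 60.9 ± 2.17 to 7.15 ± 1.61 FPKM (s.d., n = 2 each), which is 8.52-fold lower, with 68 and 65 fragments behind the HFSD values. The log2 difference was -2.94 (s.e. 0.16), with an adjusted p of 0.0025 by limma and the Benjamini-Hochberg method. Over the alternatives of processing the adjusted p ran from 0.00156 to 0.0566, and the call was lost in 1 of them, with the length trend removed and HFD replicate 2 left out (log2 difference -2.68). Without fat, SRGN measured 38.8 and 42.3 FPKM in ND and 10.5 and 12.6 FPKM in HSD, a log2 difference of -1.73. The difference between these effects was -1.21 (s.e. 0.23), with an unadjusted p of 0.00095 and an adjusted p of 0.999 by limma. SRGN was lower in each HFSD and HSD library than in any HFD or ND library.

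Beyond SRGN, 22 genes including it had an adjusted p under 0.1, 2 higher and 20 lower, and 13 of the 22 carry a symbol. Among the 22 was PXYLP1, a phosphatase that removes the phosphate of the xylose that joins proteoglycan chains to their core protein. It measured 195.9 and 214.5 FPKM in HFD and 39.4 and 43.9 FPKM in HFSD, which is 4.93-fold lower and without overlap (log2 difference -2.27, s.e. 0.23, adjusted p 0.0694 by limma). PDLIM3, an actin-associated protein, measured 13.6 and 13.7 FPKM in HFD and 0.93 and 1.62 FPKM in HFSD (-2.70, adjusted p 0.092). The selenium carrier SELENOP measured 263.3 and 287 FPKM in HFD and 136 and 119.6 FPKM in HFSD, which is 2.15-fold lower (-1.10, adjusted p 0.0807). All 3 genes were well separated between the diets, and each pair of libraries of a diet was close. HR, a corepressor of nuclear receptors that include the thyroid hormone receptor, measured 46.3 and 38.5 FPKM in HFD against 21.2 and 21.4 FPKM in HFSD (-0.95, adjusted p 0.0807). EMP2, an epithelial membrane protein, went from 6.47 and 4.72 to 0.721 and 1.08 FPKM. NINJ1, which ruptures the plasma membrane of dying cells, went from 9.71 and 11.5 to 4.40 and 3.87 FPKM. EMP2 and NINJ1 were picked out after their values were seen.

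The S100 genes encode small calcium-binding proteins. S100A1 measured 183.7 and 144.1 FPKM in HFD and 34.5 and 45.3 FPKM in HFSD (-2.01, adjusted p 0.0877), and S100A13 measured 25.5 and 19.2 FPKM in HFD and 6.64 and 6.74 FPKM in HFSD (-1.59, adjusted p 0.088). Their reads may not be fully told apart, since the RefSeq annotation of another assembly lists them as neighbours that overlap by 21 bases. S100A6 (4.47 and 2.72 against 1.20 and 0.629 FPKM) and S100A4 (4.89 and 2.21 against 1.55 and 0.96 FPKM) were also lower. Of 7 tested S100 genes, 6 had both HFSD libraries below both HFD libraries and 4 had an unadjusted p under 0.05, all lower, beside 24.7% and 7.17% of all genes. Their median log2 difference was -1.15, and it was -0.52 without HFD replicate 1 and -0.35 with no filter, over 14 genes. The count of 4 was 2 without HFD replicate 1 or HFSD replicate 2. Without fat, S100A1 and S100A13 were lower by more, with log2 differences of -2.52 and -3.01 between HSD and ND.

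The largest differences included genes that mark the dorsal retina. ALDH1A1, the enzyme that makes retinoic acid in the dorsal retina, measured 47.8 and 53.4 FPKM in HFD and 1.68 and 5.52 FPKM in HFSD (-3.62, s.e. 0.74, adjusted p 0.175). TBX5, a transcription factor of the dorsal retina, measured 6.61 and 11.7 FPKM in HFD and 0.0848 and 0.560 FPKM in HFSD, with 7 and 32 fragments behind the latter (-2.92, adjusted p 0.126). EFNB2, an ephrin of dorsal cells, measured 18.4 and 23.1 FPKM against 3.26 and 6.76 FPKM (-1.91, adjusted p 0.175). In each of these the HFSD libraries were low and did not reach the HFD libraries. NR2F2, a nuclear receptor found dorsally in the developing eye, measured 12.1 and 17.3 FPKM in HFD and 1.83 and 3.82 FPKM in HFSD (-2.06). TBX3 and TBX2, dorsal factors as well, were lower by less (-0.66 and -0.37).

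Genes known from the ventral retina had no common direction. OPN1SW, the opsin of short-wavelength cones, which in the rabbit are densest in the ventral retina, measured 114.3 and 80.9 FPKM in HFD and 276.4 and 208.7 FPKM in HFSD, which is 2.49-fold higher (1.31, s.e. 0.20, adjusted p 0.12). The receptor EPHB2 was higher by 0.38, ALDH1A3, the ventral counterpart of ALDH1A1, by 0.84 with an unadjusted p over 0.05, and the ventral factor VAX2 differed by -0.04. EPHB3, a ventral receptor like EPHB2, had a log2 difference of -0.57. The ephrin EFNA5, which is not taken as a ventral gene here, was higher by 1.11. Of 20 tested genes of the dorsal and ventral list, 5 were higher and 6 lower at an unadjusted p under 0.05, and 8 each had groups that did not overlap in either direction, beside 7.96% and 7.17% and 24.9% and 24.7% of all genes. Without HFD replicate 2 or either HFSD library 3 were higher and 3 lower at that p. TBX3, TBX2, EPHB2, EPHB3, ALDH1A3, VAX2 and EFNA5 were chosen after their values were seen. Without fat, the log2 differences were -3.31 for ALDH1A1, -2.73 for TBX5, -2.31 for EFNB2, -2.21 for NR2F2, 1.98 for OPN1SW and 2.18 for ALDH1A3. The ND libraries differed widely for ALDH1A1 (13.8 and 67.5 FPKM), TBX5 (3.27 and 9.85 FPKM) and EFNB2 (12.3 and 24.2 FPKM), though both HSD libraries were below them. Of the 20 listed genes, which do not include NR2F2, 18 had the same sign in both comparisons. The labels do not say which part of the retina was taken, and its share in the results was not tested.

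Cone genes were mostly higher in HFSD. PDE6C, the catalytic subunit of the cone phosphodiesterase, measured 24.8 and 23.6 FPKM in HFD and 38.7 and 41.5 FPKM in HFSD (0.71, s.e. 0.12, adjusted p 0.152). GNAT2, the cone transducin, measured 73 and 50.5 against 102.2 and 109.5 FPKM (0.79), and SLC24A2, the cone sodium, potassium and calcium exchanger, 6.67 and 7.55 against 12.4 and 14.9 FPKM (0.85). The HFSD libraries were above the HFD libraries for each of them. Of 15 tested cone genes, 8 were higher and 0 lower at an unadjusted p under 0.05, beside 7.96% and 7.17% of all genes, and the median log2 difference was 0.45 against -0.0070 over all genes. The 8 also included both subunits of the cone channel, CNGA3 and CNGB3, and the nuclear receptors THRB and RXRG, which direct opsin choice. The cone list also held TTR, which the pigment epithelium makes and which was lower (-1.12). The median stayed between 0.31 (without HFD replicate 2) and 0.74 (without HFD replicate 1), and 5 genes were higher at an unadjusted p under 0.05 without HFD replicate 2 or HFSD replicate 1. HFD replicate 2 had the lower value of its group for all cone genes named here but SLC24A2. Without fat the median was 0.32, and 13 of the 15 genes had the same sign.

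Rod genes differed by less. GUCY2D, a guanylate cyclase of photoreceptor outer segments and not of rods alone, measured 265.2 and 285 FPKM against 368.2 and 335.5 FPKM (0.35). It was the only gene of the 18 on the rod list with an unadjusted p under 0.05. Of the 18, 12 were lower and 6 higher. Without overlap 8 were lower and 3 higher, beside 24.7% and 24.9% of all genes. The median of the rod list was -0.17 and became -0.01 without HFD replicate 1. The summed level of the 18 rod genes was 50225 to 64744 FPKM in HFD and 48422 to 53170 FPKM in HFSD, and that of the 15 cone genes 1138.7 to 1546 FPKM in HFD and 1737 to 1765 FPKM in HFSD. In bulk RNA, fewer cells of a type and less RNA per cell cannot be told apart.

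**Figure D2:**
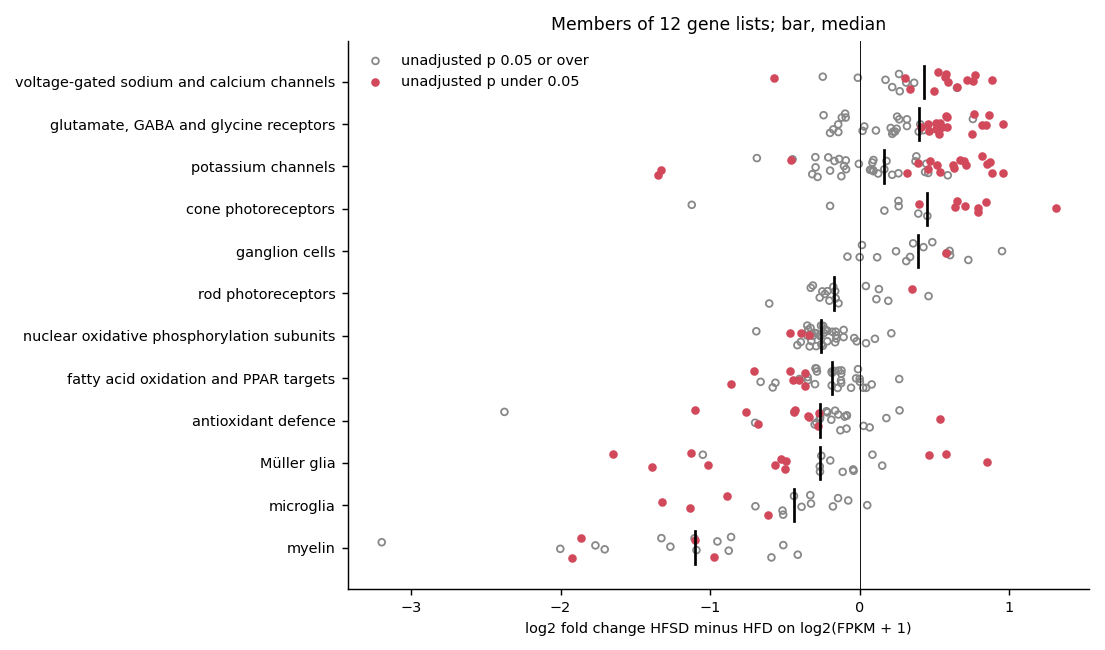
Log2 difference between HFSD and HFD on log2(FPKM + 1) for each tested member of 12 gene lists, with a bar at the median of the list. Filled points have an unadjusted p under 0.05. Channels, receptors and cone genes lie mostly to the right of 0, with medians of 0.43 for sodium and calcium channels and 0.40 for receptors, and myelin genes lie wholly to the left, with a median of -1.10.

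Receptors for glutamate, GABA and glycine, which receive the signals at retinal synapses, were higher as a group. GRIK1, a kainate receptor subunit of OFF bipolar cells, measured 18.9 and 24.3 FPKM in HFD and 40.2 and 45.3 FPKM in HFSD, which is 1.98-fold higher (0.96, s.e. 0.19, adjusted p 0.175). The glycine receptor subunit GLRA2 measured 10.5 and 12 FPKM against 17.5 and 16.1 FPKM (0.54). No HFSD library of these genes reached down to an HFD library. GABRA6, a GABA-A receptor subunit, was at 2.72 and 2.96 FPKM in HFD and 5.11 and 6.53 FPKM in HFSD (0.82). Of 42 tested receptor genes, 17 were higher and 0 lower at an unadjusted p under 0.05 (7.96% and 7.17% of all genes), and 28 were higher and 2 lower without overlap (24.9% and 24.7% of all genes). The 17 comprised 8 GABA-A subunits, the GABA-rho subunit GABRR3, 4 glycine receptor alpha subunits and the glutamate receptor genes GRIK1, GRIA3, GRM4 and GRM7, with GABRR3, GRIA3, GRM4 and GRM7 named after their values were seen. The median log2 difference was 0.40. It was 0.32 without HFD replicate 1 and 0.30 with the length trend removed, and then 8 and 14 genes were higher at an unadjusted p under 0.05. The count was 9 without either HFSD library. Without fat the median was 0.26, and 35 of 42 genes had the same sign.

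Voltage-gated sodium and calcium channels carry the spikes and the transmitter release of retinal neurons. SCN3B, the beta-3 subunit of the sodium channel, measured 35.7 and 33.1 FPKM in HFD and 57.7 and 61.4 FPKM in HFSD (0.78, s.e. 0.10, adjusted p 0.0877). CACNA1G, a T-type calcium channel, measured 8.48 and 10.1 FPKM against 18.5 and 17.3 FPKM (0.88, s.e. 0.13, adjusted p 0.0982). These are the 2 genes that were higher at an adjusted p under 0.1, and their libraries lay close within each diet. The sodium channel SCN3A was at 2.56 and 2.55 FPKM in HFD and 4.66 and 5.04 FPKM in HFSD (0.72). Of 22 tested genes, 12 were higher and 1 lower at an unadjusted p under 0.05, beside 7.96% and 7.17% of all genes, and the median log2 difference was 0.43. The channel genes were long, with a median of 4100 bases against 1987 over all tested genes. With the length trend removed 8 were higher and 1 lower (median 0.37), and without HFD replicate 1 5 were higher and 1 lower (median 0.42). The count of higher genes was 4 without HFSD replicate 1 and 5 without HFSD replicate 2. The median without fat was 0.10, and 5 of the 22 genes had an unadjusted interaction p under 0.05, against 3.74% of all genes.

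Among 51 tested potassium channel genes, which set the resting potential and end the spike, 16 were higher and 3 lower at an unadjusted p under 0.05, beside 7.96% and 7.17% of all genes (median log2 difference 0.17). The count of higher genes was 8 without either HFSD library, and the median was 0.32 without HFD replicate 1. KCNC1, a fast channel that permits rapid firing, measured 16.6 and 17 FPKM in HFD and 26.3 and 26.5 FPKM in HFSD (0.63). KCND3, an A-type channel, measured 13 and 16.2 FPKM against 28 and 30.5 FPKM (0.96), and KCNJ2, an inward rectifier, 4.53 and 2.93 against 6.99 and 7.91 FPKM (0.86). KCNG4, a subunit that is silent alone and modifies other channels, was lower instead, at 12.2 and 15.6 FPKM in HFD and 5.11 and 4.51 FPKM in HFSD (-1.35, s.e. 0.16, adjusted p 0.0807). KCNG4 also passed the adjusted test with the length trend removed (adjusted p 0.0435). It did not differ in this way without fat, where its log2 difference was 0.12, and the unadjusted p of the interaction was 0.000236 (adjusted p 0.479 by limma).

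Ganglion cell genes showed many small differences in a common direction. EBF3, a transcription factor of inner retinal neurons, measured 5.55 and 5.62 FPKM in HFD and 8.53 and 9.11 FPKM in HFSD (0.58), and it was the only ganglion cell gene with an unadjusted p under 0.05. Of 16 tested genes 15 were higher, 11 of them without overlap, and 0 were lower without overlap, beside 24.9% and 24.7% of all genes. The median was 0.39. It was 0.20 without HFD replicate 2 and 0.53 without HFD replicate 1. Without fat the median was -0.01 and 9 of 16 genes had the same sign. The summed level of the list was 866.8 to 1096 FPKM in HFD and 1018 to 1157 FPKM in HFSD, so that it overlapped.

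More bipolar, horizontal and amacrine cell markers were higher than lower, in numbers that moved with the HFD libraries. SCGN, a calcium-binding protein of cone bipolar cells, measured 46.1 and 27.2 FPKM in HFD and 78.9 and 64.4 FPKM in HFSD (0.99). LRIT3 measured 27.6 and 28.9 against 38.6 and 39.6 FPKM (0.45). It is listed for its part in arranging the receptor complex of ON bipolar cells, not as a gene of bipolar cells alone. Of 16 tested bipolar genes 10 were higher and 6 lower, 4 and 1 of them at an unadjusted p under 0.05, beside 7.96% and 7.17% of all genes. Without HFD replicate 2, 8 were higher and 8 lower, and the median of 0.15 went to -0.0045. The count of 4 was 2 without HFD replicate 2 or HFSD replicate 1. In horizontal cells the calcium-binding protein CALB1 was higher, at 41.6 and 35.8 against 47.3 and 48.9 FPKM (0.31), as was the transcription factor ONECUT1 (0.75). Of 10 tested horizontal cell genes 8 were higher, 5 of them without overlap (24.9% of all genes), and without HFD replicate 1, 5 were higher and 5 lower and the median of 0.23 was 0.09. Amacrine peptides parted. VIP was at 5.36 and 6.73 FPKM in HFD and 0.719 and 1.60 FPKM in HFSD (-1.73, adjusted p 0.0982), and SST, somatostatin, was at 0.20 and 0.132 FPKM in HFD and 2.07 and 1.47 FPKM in HFSD (1.24). SST rested on 5 and 3 fragments in the HFD libraries. Of 17 amacrine genes 13 were higher and 4 lower, with 2 each at an unadjusted p under 0.05, beside 7.96% and 7.17% of all genes. Without HFD replicate 2, 10 were higher and 7 lower. The median was 0.12, and it was 0.05 without HFD replicate 2 and 0.07 without HFSD replicate 1.

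Müller glia genes were lower for the most part, with 16 lower and 5 higher. Without HFD replicate 2, 11 were lower and 10 higher. GLUL, glutamine synthetase, which turns the glutamate taken up from synapses into glutamine, measured 1685 and 1552 FPKM in HFD and 721.6 and 889.7 FPKM in HFSD, which is 2.01-fold lower (-1.01, s.e. 0.22, adjusted p 0.19). RLBP1, the retinaldehyde-binding protein of Müller glia and pigment epithelium, measured 229 and 186.3 FPKM against 95 and 92.6 FPKM (-1.13). TIMP3, an inhibitor of matrix proteases, measured 9.62 and 6.02 FPKM against 2.16 and 2.46 FPKM (-1.39). In all 3 genes both HFSD libraries were below both HFD libraries. Of 21 tested Müller genes 8 were lower and 3 higher at an unadjusted p under 0.05, beside 7.17% and 7.96% of all genes, with a median of -0.26. The glutamate transporter SLC1A3 and the potassium channel KCNJ10, which define these glia as well, differed by -0.04 and 0.09, and both were picked after their values were seen. The median was -0.53 without HFD replicate 1 and -0.11 without HFD replicate 2, with 4 genes lower at that p without HFD replicate 2 or HFSD replicate 2 and 5 without HFSD replicate 1. The summed level was 4764 to 4972 FPKM in HFD and 3360 to 3423 FPKM in HFSD. Without fat GLUL differed by -1.12, RLBP1 by -0.88 and TIMP3 by -2.03.

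Myelin genes were the most uniform list. All 18 tested genes were lower, 17 of them without overlap, beside 24.7% of all genes, and 4 had an unadjusted p under 0.05, beside 7.17%. That count was 0 without HFD replicate 1 or HFSD replicate 1. MOG, on the outer face of the myelin sheath, measured 19.7 and 18.6 FPKM in HFD and 7.65 and 11.3 FPKM in HFSD (-0.97). MBP measured 171.7 and 103.7 FPKM against 4.02 and 41.9 FPKM (-3.20, s.e. 1.56, adjusted p 0.374). Both HFSD libraries were lower than both HFD libraries for MOG and MBP, but HFSD replicate 1 was much the lower of the pair for MBP. Without HFSD replicate 1 the median of -1.10 became -0.78, and without HFSD replicate 2 it became -1.45. Of 13 tested astrocyte and gliosis genes 11 were lower, and 2 were lower and 1 higher at an unadjusted p under 0.05, beside 7.17% and 7.96% of all genes (median -0.26, and -0.11 without HFD replicate 2, when 7 were lower and 6 higher). CNTF, a growth factor for neurons and glia, was the higher one (0.57). GFAP, the filament of astrocytes and of reactive Müller glia, measured 216.1 and 202.9 FPKM in HFD and 3.05 and 69.5 FPKM in HFSD (-3.64, s.e. 1.76, adjusted p 0.372), and the gap junction gene GJA1 11.7 and 10.1 against 1.26 and 3.97 FPKM (-1.82). CHI3L1, a secreted protein of reactive astrocytes, measured 69.2 and 91 FPKM against 24.3 and 12.1 FPKM (-2.14, adjusted p 0.142).

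MBP and GFAP varied widely within ND. GFAP measured 524.2 and 12.1 FPKM in the ND libraries and 2.37 and 1.08 FPKM in HSD, and MBP 252.4 and 6.55 FPKM in ND and 4.34 and 4.16 FPKM in HSD. The summed level of the 18 myelin genes was 1791 to 2144 FPKM in HFD and 785 to 886.8 FPKM in HFSD, much of it from TF, transferrin, at 1592 and 1403 against 697.5 and 694.8 FPKM. The sum was 1642 to 2140 FPKM in ND and 870.8 to 993.8 FPKM in HSD. No myelin gene was at 0 in an HFD library, and OLIG1, MOBP and TMEM125 were at 0 in HFSD replicate 1. The part of this in the other results was not tested.

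Most genes of microglia and of the complement and antigen presentation lists were lower, many of them at low levels. C1QC, part of the first complement component, measured 7.41 and 4.11 FPKM in HFD and 2 and 1.97 FPKM in HFSD, which is 2.90-fold lower (-1.14, s.e. 0.24, adjusted p 0.182). C1QA and C1QB were at 3.29 and 2.24 against 0.527 and 1.67 FPKM and at 3.54 and 2.46 against 1.34 and 1.88 FPKM. CD74, the chain that guides class II molecules, measured 7.05 and 9.86 FPKM against 2.09 and 3.55 FPKM (-1.32, adjusted p 0.183). The C1Q genes count in both the microglia and the complement list, and CD74 in both the microglia and the antigen list. For each of these genes both HFSD libraries were below both HFD libraries. RLA-DR-ALPHA, a class II molecule itself, was at 3.03 and 4.41 FPKM in HFD and 0.70 and 1.01 FPKM in HFSD, and B2M, the light chain of class I, at 44.4 and 44.2 against 17.6 and 25.4 FPKM (-1.03). SERPING1, the inhibitor of the complement C1 complex, measured 2.61 and 2.64 FPKM against 0.977 and 0.728 FPKM (-0.97). CLU, a secreted chaperone that inhibits complement, was at 825.3 and 734.4 against 571.0 and 536.5 FPKM (-0.49). Of 15 microglia genes 4 were lower and 0 higher at an unadjusted p under 0.05 (median -0.44), of 11 complement genes 5 and 0 (median -0.61), and of 17 interferon and antigen genes 4 and 0 (median -0.42), beside 7.17% and 7.96% of all genes. The microglia median was -0.25 with 2 genes lower without HFSD replicate 1, and -0.34 with 2 lower without HFD replicate 1. The antigen median was -0.20 with 2 genes lower without HFD replicate 2, 2 antigen genes were lower without HFSD replicate 1, and 3 complement genes were lower without HFD replicate 1 or HFSD replicate 1. Over 18 alternatives the complement median ran from -1.02 to -0.07, the last from the 2 genes that passed a filter of 5 FPKM. The summed microglia level was 62.9 to 77.3 FPKM in HFD and 44.1 to 54.2 FPKM in HFSD.

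AIF1, the gene of the microglial protein IBA1, was near the filter of 1 FPKM, at 1.05 and 0.699 FPKM in HFD and 0.408 and 0.568 FPKM in HFSD (-0.33, adjusted p 0.6). The microglial receptors P2RY12 and CX3CR1 overlapped between the diets, at -0.18 and -0.14, and were chosen after their values were seen. Inflammatory genes were mixed, with 2 higher and 1 lower at an unadjusted p under 0.05 of 14 tested, beside 7.96% and 7.17% of all genes. Without HFD replicate 1, 0 were higher at that p and the median of -0.17 was 0.02. VCAM1, an adhesion molecule for leukocytes, was higher, at 3.12 and 2.88 FPKM in HFD and 6.58 and 6.11 FPKM in HFSD (0.88), and the cytokine CSF1 was lower (-0.66). Without fat the microglia median was -0.46, and 15 of 15 genes had the same sign in both comparisons. The summed levels of the microglia and myelin genes were both lower in both HFSD libraries than in both HFD libraries, and the part of cell composition was not tested.

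Endothelial and barrier genes were lower more often than higher. SLC2A1, the glucose transporter of barrier endothelium, pigment epithelium and glia, measured 289.1 and 303.3 FPKM in HFD and 192.9 and 210.8 FPKM in HFSD, which is 1.47-fold lower (-0.55, s.e. 0.15, adjusted p 0.223). MFSD2A, which carries lysophospholipids of docosahexaenoic acid, measured 5.55 and 9.28 FPKM against 1.55 and 1.76 FPKM (-1.63). The amino acid transporter chain SLC3A2 measured 65.2 and 60 against 45.1 and 45.2 FPKM (-0.46). Of 33 tested barrier and transport genes 22 were lower and 11 higher, with a median of -0.19. Without overlap 13 were lower and 7 higher, beside 24.7% and 24.9% of all genes. At an unadjusted p under 0.05, 7 were lower and 6 higher, beside 7.17% and 7.96% of all genes. The count of higher genes was 1 without HFD replicate 1 or HFSD replicate 1 and 2 without HFSD replicate 2, when the median was -0.12, and that of lower genes was 4 without HFSD replicate 1. The endothelial list had a median of -0.42 over 11 genes. Of these 8 were lower and 3 higher, 6 and 2 of them without overlap, beside 24.7% and 24.9% of all genes. Only the VEGF receptor FLT1 had an unadjusted p under 0.05, and it was higher (15.5 and 22.5 against 31.6 and 24.3 FPKM). The endothelial median was -0.24 without HFD replicate 1 and -0.63 without HFD replicate 2, and over 18 alternatives it ran from -1.41 (voom) to -0.06 (4 genes, with a filter of 5 FPKM). VEGFC, a growth factor of lymphatic endothelium, was also higher, at 2.91 and 0.304 FPKM in HFD and 5.47 and 4.57 FPKM in HFSD (1.41). Of 18 tested genes of apelin and VEGF signalling, however, 14 were lower and 4 higher (median -0.24). Without overlap 9 were lower and 4 higher, beside 24.7% and 24.9% of all genes. SLC2A1 differed by the same amount without fat (-0.53).

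The visual cycle returns retinal to its light-sensitive form, mostly in the pigment epithelium. RPE65, the isomerase of the cycle, measured 34.8 and 10.1 FPKM in HFD and 25.6 and 12.1 FPKM in HFSD (-0.10, s.e. 0.56), and RDH5 2.72 and 2.73 against 3.21 and 0.956 FPKM (-0.38, s.e. 0.32). LRAT, which makes retinyl esters, was at 0.746 and 0.749 FPKM against 0.609 and 0.155 FPKM (-0.36). RPE65 and RDH5 overlapped between the diets, both HFSD libraries were below HFD for LRAT, and the sign of RPE65 and RDH5 turned when a library was left out. Without fat the log2 differences were -2.48, -2.43 and -2.16, with an unadjusted interaction p of 0.019, 0.00232 and 0.0159 and an adjusted interaction p of 0.999 for each. RGR, an opsin of pigment epithelium and Müller glia, was lower, at 147.1 and 217.5 against 98.8 and 85.3 FPKM (-0.95), as was tyrosinase, TYR (-0.82). TRPM3, a cation channel, was higher, at 6.02 and 7.90 against 11 and 10.8 FPKM (0.59). Of 23 pigment epithelium genes 19 were lower and 4 higher, 3 and 1 of them at an unadjusted p under 0.05, and of 17 visual cycle genes 14 were lower and 3 higher, 3 and 0 of them at that p, beside 7.17% and 7.96% of all genes. The medians of -0.22 and -0.20 were both -0.12 without HFSD replicate 2, with 1 gene lower at that p in each list, and -0.36 and -0.54 without HFSD replicate 1, with 5 lower in each. The unadjusted interaction p was under 0.05 for 9 of the 23 and 5 of the 17 genes, against 3.74% of all genes. RDH10, a retinol dehydrogenase of the retina, was at 6.67 and 7.36 against 5.11 and 3.79 FPKM (-0.57). The summed level of the 23 pigment epithelium genes was 689.8 to 702 FPKM in HFD and 448.6 to 492.4 FPKM in HFSD. Without RLBP1 and RGR, left out after the data were seen, the sum of the other 21 genes was 325.9 and 286 FPKM in HFD and 298.5 and 270.6 FPKM in HFSD, so that the groups overlapped.

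Retinoic acid is made by the ALDH1A enzymes and broken down by the CYP26 enzymes. CYP26B1 was lower, at 2.66 and 4.23 FPKM in HFD and 0.511 and 0.903 FPKM in HFSD (-1.37, adjusted p 0.164), and CYP26C1 higher, at 0.512 and 0.210 against 1.68 and 1.94 FPKM (1.05). The 15 tested genes of this list had 2 each in either direction at an unadjusted p under 0.05, beside 7.96% and 7.17% of all genes, and a median of -0.06. Without HFSD replicate 2 the median was 0.15, and its sign turned in 2 of 18 alternatives. The count of higher genes was 0 without HFD replicate 2 or either HFSD library.

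Most genes of fatty acid oxidation were slightly lower. BDH1, which interconverts the ketone bodies, measured 16.7 and 20.3 FPKM in HFD and 10.7 and 8.76 FPKM in HFSD (-0.86, s.e. 0.18, adjusted p 0.175). The thiolases ACAA1, of peroxisomes, and ACAA2, of mitochondria, were at 30.6 and 26.8 against 22 and 19.6 FPKM and at 40.8 and 33 against 27.6 and 28.9 FPKM. ETFA, which passes electrons from fatty acid oxidation to the respiratory chain, was at 22 and 18.9 against 13.4 and 17.1 FPKM (-0.41). Of 36 genes of fatty acid oxidation 30 were lower, 20 of them without overlap, and 7 were lower and 0 higher at an unadjusted p under 0.05 (median -0.19), beside 24.7% of all genes lower without overlap and 7.17% lower at that p. The median was -0.12 without HFD replicate 1, with 3 genes lower. The count was 3 and 4 without HFSD replicates 1 and 2, and without fat the median was -0.04. Of 24 genes of cholesterol synthesis and uptake 1 was higher and 0 were lower at an unadjusted p under 0.05 (median 0.12), beside 7.96% and 7.17% of all genes. The median was 0.01 without HFD replicate 2 and turned sign in 1 of 18 alternatives. The lipid droplet coat gene PLIN2 was at 12.5 and 10 against 10.3 and 8.94 FPKM (-0.21). Of 27 genes of sterol efflux and lipid droplets 1 was higher and 3 were lower at an unadjusted p under 0.05 (median -0.13), beside 7.96% and 7.17% of all genes. The median was -0.06 without HFSD replicate 2 and -0.21 without HFD replicate 2. LPL, the lipase of lipoproteins, was higher (0.66), LCAT, which esterifies cholesterol, and NR1H3, a sterol receptor, were lower (-0.80 and -0.51), and CIDEA, which fuses lipid droplets, was lower (3.22 and 3.19 against 1.32 and 0.591 FPKM).

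Sugar metabolism showed no common direction. KHK, which phosphorylates fructose, was slightly lower, at 34.4 and 29.7 FPKM in HFD and 28.8 and 26.4 FPKM in HFSD (-0.21, adjusted p 0.447), and TKFC, the triokinase that acts later on fructose, was at 25.7 and 27.3 against 20.7 and 19.3 FPKM (-0.39). TXNIP, which responds to glucose, was at 6.22 and 7.70 against 6.16 and 3.83 FPKM (-0.43, s.e. 0.36, adjusted p 0.579). HK2, a hexokinase of photoreceptors, was higher, at 79.7 and 57.5 FPKM in HFD and 106.3 and 118.7 FPKM in HFSD (0.72), and SLC16A1, a lactate transporter, lower, at 209.4 and 226.7 against 151 and 164.2 FPKM (-0.47). Both HFSD libraries were outside the HFD range for all 5 of these genes. Of 30 glycolysis genes 3 were higher and 4 lower at an unadjusted p under 0.05 (median -0.02), and of 25 fructose and polyol genes 2 each (median -0.06), beside 7.96% and 7.17% of all genes. Without HFSD replicate 1, 1 glycolysis gene was higher and 0 were lower at that p. GFPT1, the entry to hexosamine synthesis, was higher, at 8.21 and 7.47 against 11.9 and 11 FPKM (0.49).

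Insulin and IGF signalling had genes in both directions. Of 30 tested genes 10 were higher and 2 lower at an unadjusted p under 0.05, beside 7.96% and 7.17% of all genes. The median of 0.09 was -0.00073 with the length trend removed, when 15 genes were higher and 15 lower. GSK3B, a kinase that insulin signals inhibit, was at 10.2 and 15.5 against 20.6 and 21.1 FPKM (0.69) and PIK3CA, a catalytic subunit of PI3-kinase, at 10.9 and 14.2 against 17.9 and 20.7 FPKM (0.59). IGFBP5, which binds IGF outside the cell, was lower, at 39.9 and 66.7 FPKM in HFD and 14.2 and 24 FPKM in HFSD (-1.43). The higher genes had opposed roles. They included the receptors INSR (0.28) and IGF1R (0.37) and the ligand IGF1 (0.54), but also TSC1 (0.43), which restrains the pathway, and the other lower gene was IGFBP6 (-0.41). INSR, IGF1R, IGF1, TSC1 and IGFBP6 were named after their values were seen. The count of higher genes was 5 without either HFD library, 5 and 4 without HFSD replicates 1 and 2, and 7 with the length trend removed.

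Antioxidant genes were lower for the most part. GSTP1, a glutathione transferase, measured 172.2 and 168.3 FPKM in HFD and 104.7 and 107 FPKM in HFSD (-0.68, s.e. 0.14, adjusted p 0.178), and the metallothionein MT3 732.4 and 603.6 against 405.2 and 378.7 FPKM (-0.76). MSRB1, a selenoprotein that repairs oxidised methionine, was at 144 and 115.8 against 92.2 and 98.6 FPKM (-0.43). Together with SELENOP, 9 of 31 genes were lower and 1 higher at an unadjusted p under 0.05, beside 7.17% and 7.96% of all genes, and 21 were lower without overlap, beside 24.7% of all genes. The median of -0.26 was -0.17 without HFD replicate 1 and -0.34 without HFD replicate 2. The count of lower genes was 4 without HFD replicate 1 or HFSD replicate 1. Without fat the median was -0.12.

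Nuclear genes of oxidative phosphorylation, the proteasome and the ribosome were slightly lower in HFSD, and this rested on HFD replicate 1. COX4I1, a subunit of cytochrome oxidase, measured 1299 and 1024 FPKM in HFD and 819.5 and 852.5 FPKM in HFSD (-0.46), NDUFA10 46.1 and 41 against 32.3 and 36.1 FPKM (-0.34), and the proteasome subunit PSMB5 230.1 and 168.8 against 143.2 and 138.1 FPKM (-0.48). In each of them HFD replicate 1 was the highest library. Of 39 oxidative phosphorylation genes 36 were lower and 3 had an unadjusted p under 0.05 (median -0.26), of 30 proteasome genes 28 and 3 (median -0.18), and of 32 ribosomal genes 29 and 1 (median -0.22). Over all genes 7.17% were lower at this p, so that these counts were near the background. Without overlap 19 of the 39, 12 of the 30 and 6 of the 32 were lower, beside 24.7% of all genes. Without HFD replicate 1, 30, 20 and 12 of them were lower. Without HFD replicate 1 the medians were -0.05, -0.04 and 0.03 with 0 genes at an unadjusted p under 0.05 in each list, and without HFD replicate 2 they were -0.45, -0.32 and -0.48 with 28, 16 and 21 genes lower. The 13 genes of the mitochondrial genome had a median of 0.02 and 0 genes at an unadjusted p under 0.05.

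**Figure D3:**
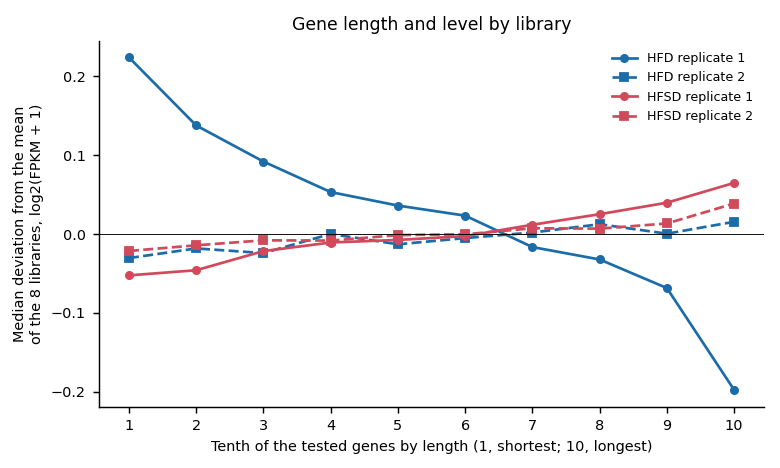
Median deviation of each HFD and HFSD library from the mean of the 8 libraries, on log2(FPKM + 1), over 10 groups of the tested genes by length, from the shortest (1) to the longest (10). HFD replicate 1 runs from 0.224 above the mean for the shortest genes to -0.198 for the longest, and the other libraries stay between -0.0526 and 0.0649.

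Gene length moved with these results. The median log2 difference between HFSD and HFD went from -0.143 in the shortest of 10 length groups to 0.14 in the longest, against -0.0265 and 0.0574 between HSD and ND. Genes that were higher at an unadjusted p under 0.05 had a median length of 2644 bases and lower ones 1380 bases, against 1987 over all tested genes. The genes of oxidative phosphorylation were short, with a median of 674 bases, and the receptor genes long, with 3088 bases. With the length trend removed, the medians of the receptor, channel, cone and oxidative phosphorylation lists were 0.30, 0.37, 0.56 and -0.19.

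Immediate early genes, which respond within minutes to activity, stress and dissection, differed widely between the HFD libraries. DUSP1, a phosphatase that ends MAP kinase signals, measured 4.63 and 55.2 FPKM in HFD and 3.10 and 3.34 FPKM in HFSD (-2.08, s.e. 0.88, adjusted p 0.325), CEBPB 4.68 and 26.8 against 1.38 and 2.53 FPKM, and FOS 10 and 221.8 against 63.6 and 60.6 FPKM. HFD replicate 2 was the high library in each. The median of 24 such genes was -0.71, and it was -1.67 without HFD replicate 1 and -0.04 without HFD replicate 2. Without HFD replicate 1, DUSP1 passed the adjusted test (adjusted p 0.0154). The ID genes, which block basic helix-loop-helix factors downstream of BMP signals, were lower against both HFD libraries. ID1 measured 84.7 and 180.7 FPKM in HFD and 20.1 and 24.3 FPKM in HFSD (-2.43, s.e. 0.49, adjusted p 0.175), ID3 109 and 233.8 against 25.8 and 22.1 FPKM (-2.69), and ID2 25.1 and 48.2 against 8.7 and 10.8 FPKM (-1.74). HFD replicate 2 was again the higher library, but HFD replicate 1 also lay above both HFSD libraries. Without fat the ID genes differed by -0.20, -0.59 and 0.65, with an unadjusted interaction p of 0.0132, 0.0662 and 0.00216. TGFB2 and BAMBI, a ligand and a decoy receptor of the TGF-beta family, were lower (-0.80 and -1.07). The list of 31 TGF-beta and BMP genes as a whole had 14 higher and 17 lower genes and a median of -0.02, which turned sign in 3 of 18 alternatives.

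CRYAB, a small heat shock protein, measured 290.9 and 317.3 FPKM in HFD and 122.7 and 170.7 FPKM in HFSD, which is 2.07-fold lower (-1.06, s.e. 0.17, adjusted p 0.129). The lens crystallin CRYBB2 was at 6.06 and 8.23 against 3.85 and 2.19 FPKM (-1.04), with 3 of 4 tested crystallins lower at an unadjusted p under 0.05, beside 7.17% of all genes. Their median of -1.05 was -0.10 with no filter, over 15 genes. CRYAB and CRYBB2 went apart from the fat-free comparison, with log2 differences of -0.16 and 1.53 between HSD and ND. BAG2, a cochaperone, was at 71.3 and 70.1 FPKM in HFD and 55.8 and 53.7 FPKM in HFSD (-0.36), but 37 and 36.7 FPKM in ND and 75.7 and 72.2 FPKM in HSD (0.99), with an unadjusted interaction p of 1.44e-05 and an adjusted p of 0.0879 by limma. The 32 heat shock genes as a list had a median of 0.02. Among clock genes CIART was lower (-1.07), with HFD replicate 2 at 33.2 FPKM and the other 3 libraries at 8.68 to 12.9 FPKM, and RORA and CLOCK were higher (0.65 and 0.43). The linker histone HIST1H1C was at 134.4 and 73.8 FPKM in HFD and 39 and 50.4 FPKM in HFSD (-1.15), while HIST1H1T was 2.45-fold higher. Of 13 tested histone genes 11 were lower and 2 higher. Their median of -0.18 was 0.05 without HFD replicate 1.

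Further genes with large differences were scattered in function. HCRT, the precursor of the orexin peptides, was at 26.8 and 21.7 FPKM in HFD and 1.15 and 7.65 FPKM in HFSD (-2.54). ITIH2, which binds hyaluronan, was at 5.29 and 7.73 against 0.322 and 0.393 FPKM (-2.45). Among higher genes, GNG4, a G protein gamma subunit, was at 20.5 and 16.1 FPKM in HFD and 46.6 and 39.4 FPKM in HFSD (1.20), and NTS, the peptide neurotensin, at 2.19 and 1.39 against 5.96 and 5.08 FPKM (1.24). Both HFSD libraries lay outside the HFD range for all 4 genes. Of 17 fibroblast and choroid genes 5 were lower and 0 higher at an unadjusted p under 0.05 (median -0.42), beside 7.17% and 7.96% of all genes, and 3 were lower without HFSD replicate 2. Of 42 genes of collagens, laminins and integrins 6 were lower and 1 higher at that p (median -0.13). The count of lower genes was 10 without HFD replicate 1, 3 without HFD replicate 2 and 0 without HFSD replicate 2, when the median was -0.07. SFRP2, a secreted regulator of Wnt signals, was at 778.8 and 689.4 against 207.1 and 386.2 FPKM (-1.37).

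**Figure D4:**
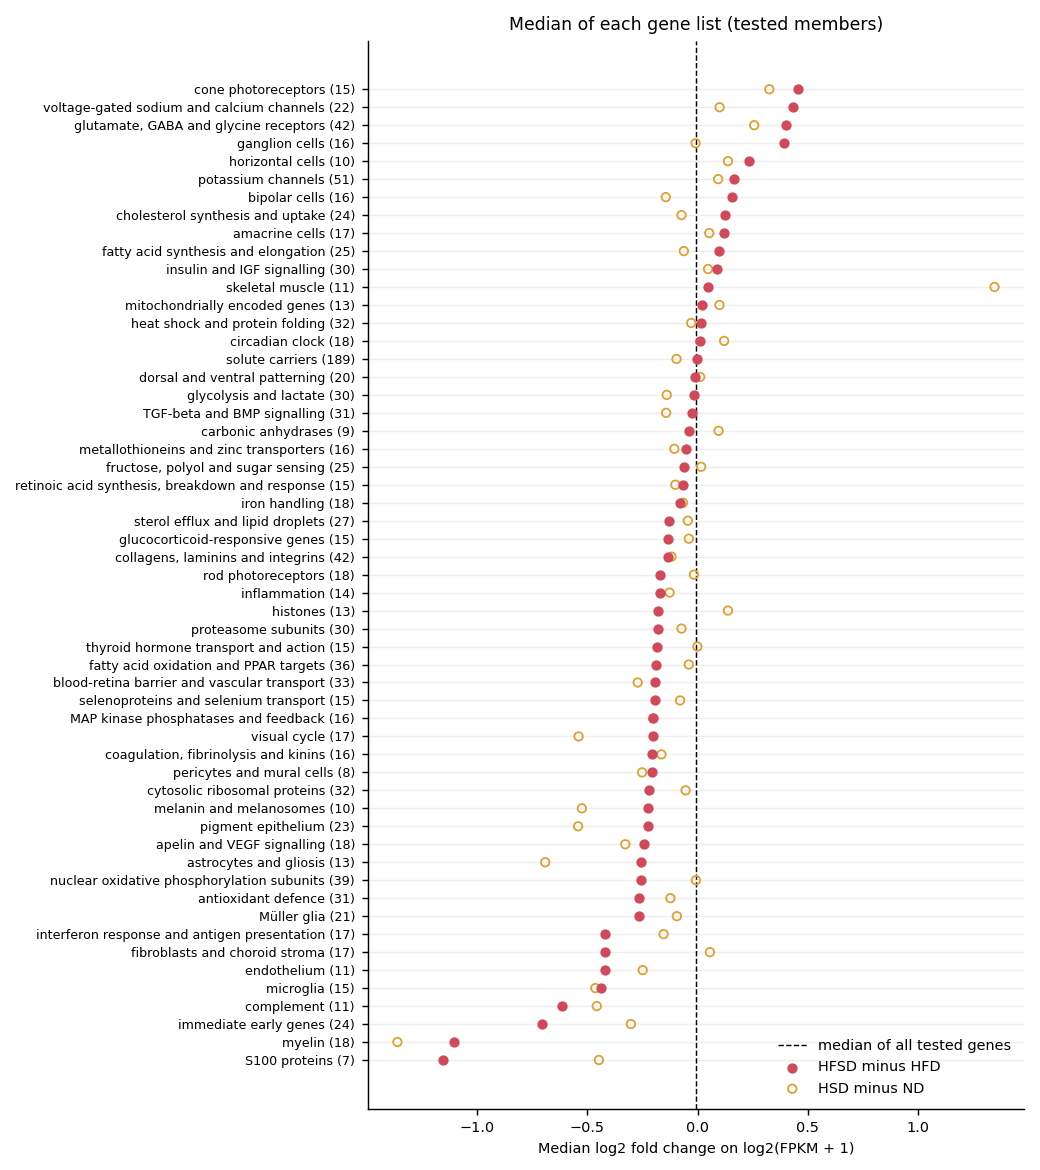
Median log2 difference of the tested members of each gene list with 7 or more of them (number in brackets), between HFSD and HFD (filled) and between HSD and ND (open), with a dashed line at the median of all tested genes. Cone, channel, receptor and ganglion cell genes stand highest in HFSD against HFD and S100, myelin and immediate early genes lowest.

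Sucrose was added to the diet both with and without fat, and these comparisons share no library. Over all 12204 tested genes, 67% differed in the same direction in both. Of the 972 genes that were higher with fat at an unadjusted p under 0.05, 847 (87.1%) were also higher without fat, and 510 (52.5% of the 972) were so without overlap, where 19.3% of all genes were. Of the 875 lower genes, 716 (81.8%) were also lower without fat, and 464 (53% of the 875) were so without overlap, where 19.7% of all genes were. The differences were smaller without fat, with a median of 0.20 against 0.50 for the higher genes and -0.20 against -0.52 for the lower genes, which were chosen on the comparison with fat. Pearson's r of the log2 differences across genes was 0.465, where genes are not independent replicates. The interaction passed the adjusted test for 1 gene (0.00819%), which carries no symbol, and 456 genes (3.74%) had an unadjusted interaction p under 0.05, fewer than the 5% level.

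**Figure D5:**
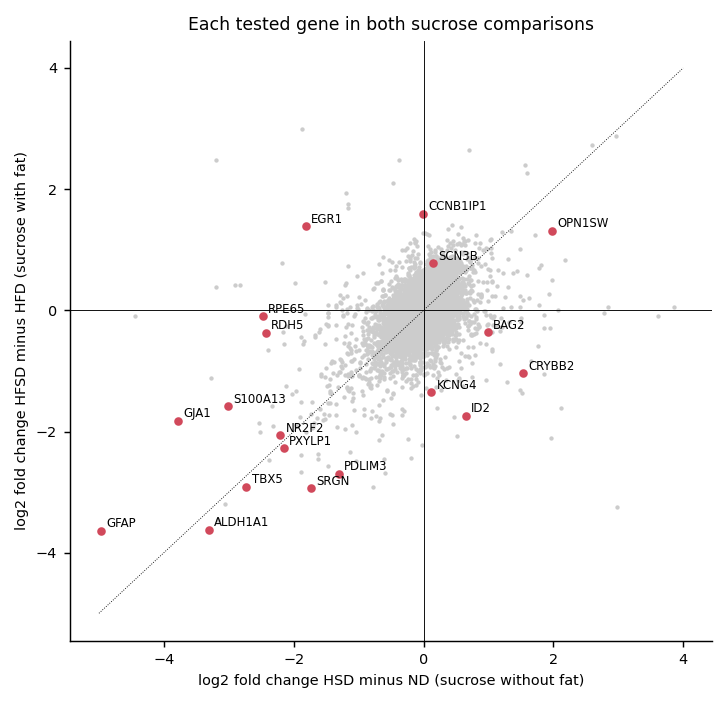
Log2 difference on log2(FPKM + 1) of each tested gene between HSD and ND (horizontal) and between HFSD and HFD (vertical), with a dotted line of equality. Named genes are in red. ALDH1A1, TBX5, NR2F2, PXYLP1 and GJA1 are low on both axes, OPN1SW is high on both, and RPE65 and RDH5 are low on the horizontal axis only.

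Some genes differed between the comparisons. KCNG4, CRYAB, ID2 and SCN3B differed with fat and had log2 differences of 0.12, -0.16, 0.65 and 0.15 without it. CCNB1IP1, which acts in the exchange between chromosomes, was at 1.44 and 1.31 FPKM in HFD and 7.74 and 4.86 FPKM in HFSD (1.59), and at 2.57 and 4.54 FPKM in ND and 2.36 and 4.87 FPKM in HSD. PANX3, a channel protein of the pannexin family, was higher on both, at 1.02 and 0.511 FPKM in HFD and 7.37 and 9.25 FPKM in HFSD (2.41), and at 5.12 and 0.814 against 20.7 and 3.49 FPKM without fat. EGR1, an immediate early gene, was at 28.9 and 242.3 FPKM in HFD and 375 and 130.9 FPKM in HFSD and overlapped (1.38, s.e. 1.04). The adjusted interaction p of the genes named in this paragraph was 0.479 or above by limma.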

How the data were processed

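RNA from dissected retina was sequenced in 8 libraries, 2 for each of 4 diets. The authors checked reads with FastQC, trimmed their 5′ ends, mapped them with TopHat2 and computed FPKM per gene from uniquely mapped reads, and the deposited table holds these FPKM values although it is named as raw counts. The genome build is not given in the sources used here. The planned count model was for raw counts only and was not the test. Steps of the deposited values gave whole fragments for 100% of the values above 0, which set the depths (15764577 to 22785832) and one alternative fit, and counting error is only part of the spread between libraries.

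Of 19293 protein-coding genes, the 12204 that reached 1 FPKM in 2 or more libraries were fitted on log2(FPKM + 1) with limma 3.58.1 in R 4.3.3, with 1 model of all 8 libraries and a mean-variance trend. Benjamini-Hochberg adjustment ran over all tested genes, with calls at an adjusted p under 0.05. Tests were 2-sided. Scripts were tested on simulated data. Python 3.11.15, pandas 2.3.3, numpy 2.4.6 and matplotlib 3.10.9 made tables and figures. Genes were matched by symbol, which 9877 tested genes carry. The 0 value columns without a sample needed no exclusion.

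The comparison and the 57 gene lists were chosen with earlier results of these data known. Genes were named by rule: called genes, the 15 largest differences each way with an unadjusted p under 0.05 and no overlap, up to 4 members of each list by smallest p, and a fixed set. Other members named beside their list were chosen after their values were seen. Alternatives covered pseudocount, filter, libraries, scaling, weights, voom and each HFD and HFSD library left out, and also HSD replicate 2. ND libraries and HSD replicate 1 were not left out. Results for some genes are not reported here.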

Additional observations from a re-analysis of the deposited data

Results flagged for a closer look

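The effect of sucrose differed with and without fat, by the interaction term of the limma model, for 1 gene without a symbol. It measured 23.4 and 15.8 FPKM in ND, 255.8 and 240.3 FPKM in HSD, 349.6 and 251.5 FPKM in HFD and 258.9 and 298 FPKM in HFSD, so that the ND libraries alone were low. The interaction was -3.71 on the log2 scale, with an adjusted p of 0.0489 by limma, and the call was lost under several alternatives of processing.

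Among 6373 rows that are not protein-coding genes, which the comparisons above leave out, 2472 passed the filter and 1 passed the adjusted test, with 192 at an unadjusted p under 0.05. This row carries neither a symbol nor a biotype. It measured 516.9 and 343.7 FPKM in HFD and 67.4 and 63.4 FPKM in HFSD, a log2 difference of -2.67 with an adjusted p of 0.0155 by limma. Without fat it measured 403.3 and 334.7 FPKM in ND and 75.2 and 85.1 FPKM in HSD, and all 4 libraries with sucrose were below all 4 without it.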

How the results depend on the processing

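SRGN kept its direction in all alternatives tried and its call in all but 1, the removal of the length trend with HFD replicate 2 left out. That alternative, the removal of the length trend alone and the fit without HSD replicate 2 were chosen after seeing the data. In place of 0 higher and 1 lower gene, the fit of the 4 HFD and HFSD libraries alone called 5 higher and 11 lower, removal of the length trend called 2 lower (KCNG4 and SRGN), and its removal without HFD replicate 2 called 1 higher (APOD) and 0 lower. Leaving out 1 library gave 0 to 1 higher and 1 to 4 lower genes, with the 4 (ATF3, BTG2, DUSP1 and SRGN) without HFD replicate 1 and the 1 higher (APOD) without HFD replicate 2. Counts at an unadjusted p under 0.05 then ran from 403 to 1280 higher and from 461 to 1303 lower, with the lowest without HFSD replicate 2 and 520 and 537 without HFSD replicate 1. The interaction called 0 genes in place of 1 with a pseudocount of 0.1, no filter, a replicate block, other size factors, no trend or voom, and 0 to 1 with a library left out. With a pseudocount of 0.1 the fold rule gave 1079 higher and 1361 lower genes, and with a library left out 383 to 797 higher, the most without HFD replicate 2. The cause was not tested.

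With a library left out, among the genes named by rule and reported here, the ones for which alternatives were run, the log2 difference changed sign for RDH5 (-0.93 to 0.18), RPE65 (-0.94 to 0.75, and 0.42 without HFSD replicate 2), EGR1 (-0.13 to 2.90), FOS (-1.82 to 2.52), and DUSP6 (-0.63 to 0.00012). Of the medians of the gene lists under the alternatives, 155 moved by more than the spread between replicates and 871 did not. Equal replicate numbers did not pair the libraries, with a correlation of deviations of -0.061 between HFD and HFSD and -0.165 to 0.081 over 6 pairs of diets. The fit with a replicate block called 0 higher and 3 lower genes (NR2F2, PXYLP1 and SRGN).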

Other observations

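Gene families set by the letters that begin their symbols, 101 of them with 10 or more tested genes, were described after the data were seen. Tetraspanins (TSPAN) had the lowest median, -0.43, with 4 of 10 genes lower at an unadjusted p under 0.05. Kinesin motors (KIF) were higher in 15 of 17 genes, 4 of them at an unadjusted p under 0.05, and synaptotagmins (SYT), calcium sensors of vesicle release, in 8 of 11 genes, also 4. Mitochondrial ribosomal proteins were lower in 17 of 20 genes (MRPS) and 27 of 32 genes (MRPL), with medians of -0.16 and -0.15. Coenzyme Q synthesis genes (COQ) were lower in 9 of 10 genes, 4 of them at an unadjusted p under 0.05. Over all tested genes 7.96% were higher and 7.17% lower at that p. The KIF genes are long, with a median of 5504 bases against 1987 over all tested genes, and the part of length was not tested for these families.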
